A study of Mus musculus with 4 samples.

Results

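Hyaluronan is a long sugar polymer of the space between cells, and 8 mouse genes of its synthesis and binding were described here across embryonic hindlimb development: Has1, Has2, Has3, Vcan, Cd44, Tnfaip6, Hyal1 and Hyal2. They were chosen by name, as 8 of the 33456 gene entries of the count tables, and each had at least 1 unique molecular identifier (UMI, standing for a captured transcript) at each stage. Single-cell RNA was profiled with droplets (10x Genomics Chromium, 3' version 2 chemistry) in 4 libraries of hindlimb cells from C57BL/6 embryos from embryonic day (E) 11.5 to E18.5, with E13.5 and E15.5 in between. By the labels these stages mark the limb bud, the first cartilage condensations, cavitation of the joints and their shaping. Each stage is 1 library of pooled hindlimb cells from 1 litter, all of them without genetic change or treatment. Collagenase and pronase were used to free the cells, which were stored frozen, and dead cells were removed after thawing. With 1 library per stage there is no replicate check, so nothing was tested and each difference is between these libraries.

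The 3 hyaluronan synthases (HAS1, HAS2 and HAS3) sit in the plasma membrane and extrude the growing chain out of the cell, and HAS2 is the main source of hyaluronan in the embryonic limb. Versican (Vcan) is a large proteoglycan that binds hyaluronan in loose, hydrated matrix, CD44 is a cell surface receptor for it, and TSG-6 (Tnfaip6) transfers heavy chains from inter-alpha-inhibitor onto it. HYAL1, a lysosomal enzyme, and HYAL2, an enzyme anchored at the cell surface, cut it. In the limb, hyaluronan is abundant in undifferentiated mesenchyme, is reduced as cartilage condenses, and is a main constituent of the fluid that fills joint cavities.

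The filters kept 9916 of 10272 cell barcodes, 1895 to 2813 per library, with median depths of 6940 to 10265 UMIs. Of 9851 barcode sequences 65 occurred in at least 2 libraries. Pitx1, a transcription factor gene of hindlimb identity, had 260 to 6741 UMIs per library. Cells were grouped into 29 clusters, computed without the 8 genes or the related hyaluronan lists below. A class is written as "like" because its name rests on marker genes. A gate named joint cells held cells with at least 1 UMI of Gdf5, the growth factor gene of the joint interzone, in joint-like, chondrocyte-like or unnamed mesenchymal clusters. The chondrocytes set against them were cells without a Gdf5 UMI in chondrocyte-like clusters that were not hypertrophic. There were 324 joint cells and 1038 chondrocytes at E13.5, and 221 joint cells and 1063 chondrocytes at E15.5. Levels are in CPM (UMIs scaled to 1e6, from summed UMIs without globin genes), and ranges in parentheses are exact 95% intervals that cover counting error only. The words higher and lower mark genes that passed a size rule: the levels differed by 2-fold or more, the interval of the ratio did not include 1, and the groups together had 20 UMIs or more.

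Vcan and Tnfaip6 were higher in joint cells than in chondrocytes at both stages. Vcan stood at 176 CPM (161 to 191) in joint cells and 17.2 CPM (15.3 to 19.4) in chondrocytes at E13.5, 10.2-fold higher (8.82 to 11.8). At E15.5 it stood at 117 CPM (103 to 132) in joint cells and 18.8 CPM (16.6 to 21.3) in chondrocytes, 6.20-fold higher (5.17 to 7.43). Tnfaip6 stood at 43.4 CPM (36.3 to 51.4) in joint cells and 10.1 CPM (8.60 to 11.8) in chondrocytes at E13.5, 4.30-fold higher (3.40 to 5.43). At E15.5 the levels were 38.5 CPM (30.5 to 47.9) in joint cells and 13.3 CPM (11.4 to 15.4) in chondrocytes, 2.89-fold higher (2.19 to 3.78). The genes lie on chromosome 13, 89655312 to 89742509, minus strand (Vcan, ENSMUSG00000021614) and on chromosome 2, 52038009 to 52056686, plus strand (Tnfaip6, ENSMUSG00000053475) in GRCm38 (mm10), both protein-coding. Tags from the 3' end do not separate the splice forms of versican.

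The bases before the starts of both genes are shown because these 2 members were higher together in joint cells. Those of Cd44 are shown because its level in joint cells, on few UMIs, could not be told from that in chondrocytes. They are taken from RefSeq (GRCm38.p6), are written 5' to 3' on the strand of the gene, and leave out bases inside the annotated gene. Capitals mark matches, on either strand, to any of 6 motifs. These were TATAAA for the TATA box, GGGCGG for the GC box, CTTTGA for the binding site of TCF/LEF factors, TGANTCA for that of AP-1, CCAAT for the box of that name and CACGTG for the E-box. Of the 8 genes 6 had an entry in the RefSeq table. The windows are Vcan at chr13:89742513-89742762 on the minus strand, Tnfaip6 at chr2:52037863-52038008 on the plus strand and Cd44 at chr2:102901666-102901915 on the minus strand.
Vcan: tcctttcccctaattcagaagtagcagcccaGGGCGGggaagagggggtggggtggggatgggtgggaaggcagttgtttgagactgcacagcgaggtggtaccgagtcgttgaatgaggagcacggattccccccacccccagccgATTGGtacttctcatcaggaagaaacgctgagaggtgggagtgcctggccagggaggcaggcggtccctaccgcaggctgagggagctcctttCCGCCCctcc
Tnfaip6: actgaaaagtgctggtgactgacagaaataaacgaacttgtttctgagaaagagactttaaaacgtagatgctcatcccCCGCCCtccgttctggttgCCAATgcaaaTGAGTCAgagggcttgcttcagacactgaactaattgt
Cd44: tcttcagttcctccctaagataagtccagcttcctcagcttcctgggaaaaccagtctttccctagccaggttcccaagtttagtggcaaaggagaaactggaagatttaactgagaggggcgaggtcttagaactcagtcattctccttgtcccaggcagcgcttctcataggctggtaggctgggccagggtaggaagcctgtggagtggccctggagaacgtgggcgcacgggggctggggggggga
The Vcan window of 250 bases has a GC content of 62.4%, against a median of 52.4% over 32851 windows, and holds the GC box in both orientations and 1 inverted CCAAT box. A GC box is found in 32.7% and a CCAAT box in 33.8% of all windows of that length. The shorter Tnfaip6 window of 146 bases has a GC content of 44.5% and holds an inverted GC box, a CCAAT box and an AP-1 match, motifs found in 16.1%, 19.4% and 3.86% of windows of that length. The Cd44 window holds none of these letters. The windows of Has1 and Hyal1, not printed, each hold a CCAAT box, and that of Hyal1 a GC box as well. A match describes the letters and is no evidence of binding.

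The other members gave smaller or less certain differences between joint cells and chondrocytes. Hyal1 (chromosome 9, 107576927 to 107581710, plus strand) stood at 12.3 CPM (8.70 to 16.9) in joint cells and 4.12 CPM (3.19 to 5.23) in chondrocytes at E13.5, 2.98-fold higher (1.95 to 4.51). At E15.5 its ratio was 1.25 (0.652 to 2.24), with 14 UMIs in joint cells and 71 in chondrocytes, and was not called. Its gene model overlaps Hyal3 and Naa80 on the same strand, so their reads may not be told apart, and Hyal3 was called higher too, at 2.53-fold (1.20 to 5.08) at E13.5 and 2.54-fold at E15.5. Has2 (chromosome 15, 56665627 to 56694539, minus strand) had 3 UMIs in joint cells and 52 in chondrocytes at E13.5, 3.29-fold lower (1.07 to 16.5). At E15.5, with 8 UMIs in joint cells and 67 in chondrocytes, its ratio was 0.758 (0.315 to 1.58) and was not called. The Has2 call rests on 3 UMIs, and it was lost with joint cells of at least 2 Gdf5 UMIs (ratio 0.530) or with whole joint-like and chondrocyte-like clusters (ratio 0.969). Hyal2 (chromosome 9, 107567945 to 107572779, plus strand) stood at 47.6 CPM (40.2 to 55.9) in joint cells and 33.1 CPM (30.4 to 36.0) in chondrocytes at E13.5, a ratio of 1.44 (1.19 to 1.73) that is under the limit of the rule, and its ratio at E15.5 was 1.12 (0.878 to 1.42). Cd44 (chromosome 2, 102811141 to 102901665, minus strand) was barely captured in either group, with 3 UMIs in joint cells and 9 in chondrocytes at E13.5 and 4 in joint cells and 17 in chondrocytes at E15.5, where the ratio was 1.49 (0.366 to 4.58). Has1 (chromosome 17, 17843323 to 17855205, minus strand) had 1 UMI in joint cells and 0 in chondrocytes at E13.5 and none in either at E15.5. Has3 (chromosome 8, 106870242 to 106884566, plus strand, overlapped by Chtf8 on the other strand) had 0 UMIs in joint cells at both stages, and in chondrocytes 3 at E13.5 and 1 at E15.5, so differences in these 2 synthases were not detectable at this depth.

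By the size rule, 3 of the 8 members were higher in joint cells at E13.5, among 11.9% of 12034 genes that met it, and 1 was lower, among 1.22% of genes. At E15.5, 2 of the 8 were higher, among 7.14% of 11772 genes, and 0 lower, among 0.731%. The members with at least 20 UMIs, 5 at E13.5 and 6 at E15.5, had median log2 ratios of 1.58 and 0.45, beside 0.21 and 0.14 over all genes tested. Joint cells were shallower than chondrocytes, with median UMIs of 7548 and 14715 at E13.5 and of 7620 and 11508 at E15.5. After each cell was thinned to 3000 UMIs, which left out no cell of either group, Vcan was found in 36.1% (30.9 to 41.6%) of joint cells and 6.17% (4.78 to 7.81%) of chondrocytes at E13.5. Without thinning these shares were 56.2% of joint cells and 19.7% of chondrocytes. At E15.5 the thinned shares for Vcan were 27.1% (21.4 to 33.5%) of joint cells and 6.49% (5.09 to 8.14%) of chondrocytes, and the unthinned ones 45.2% and 19.0%. For Tnfaip6 they were 10.8% (7.64 to 14.7%) of joint cells and 2.31% (1.49 to 3.42%) of chondrocytes at E13.5, or 28.4% and 13.4% unthinned. At E15.5 they were 15.8% (11.3 to 21.3%) of joint cells and 3.57% (2.54 to 4.87%) of chondrocytes, or 26.2% and 12.9% unthinned. Thinning thus left the order of the groups as it was for both genes. Endothelium-like cells, with a median depth of 9411 UMIs at E13.5 and 8041.5 at E15.5, gave thinned Vcan shares of 1.92% (0.234 to 6.77%) and 2.78% (0.338 to 9.68%), and thinned Tnfaip6 shares of 0% (0 to 3.48%) and 2.78%. The intervals of these shares, from 104 and 72 endothelium-like cells, overlap those of chondrocytes for both genes. With so few cells, overlap does not exclude a difference, and whether the endothelium-like shares are background was not tested. The Vcan level of 17.2 CPM in chondrocytes at E13.5 lies above the 6.53 CPM (2.63 to 13.5) of endothelium-like cells.

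**Figure D1:**
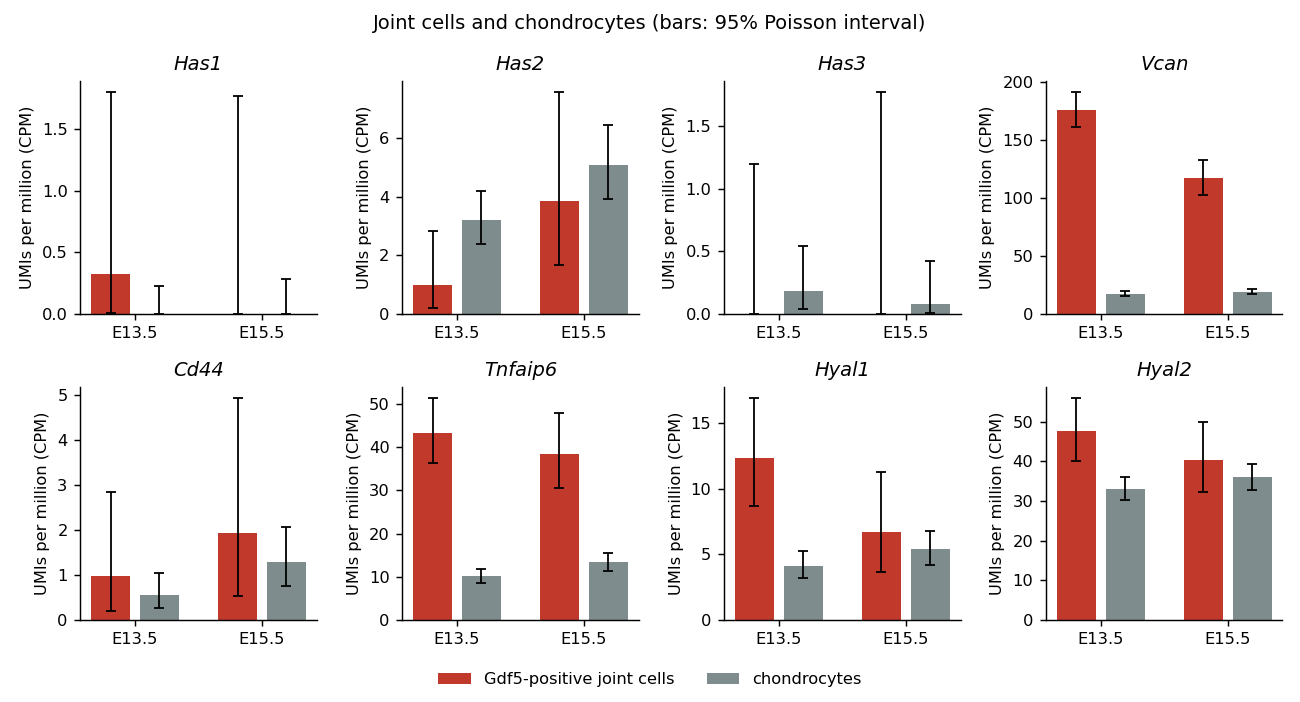
Level of each of the 8 genes in Gdf5-positive joint cells (red) and chondrocytes (grey) at E13.5 and E15.5, in CPM on an axis that starts at 0 and differs between panels, with exact 95% Poisson intervals as bars. Vcan and Tnfaip6 stand higher in joint cells at both stages, Hyal1 at E13.5, while the intervals overlap for Cd44 at both stages.

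Which cells of the joint gate carried Vcan was then asked by the number of Gdf5 UMIs and by cluster. At E13.5 Vcan stood at 131 CPM (115 to 148) in joint cells with 1 Gdf5 UMI, 192 CPM (162 to 227) with 2 or 3, and 336 CPM (285 to 393) with 4 or more. At E15.5 it stood at 64.0 CPM (51.7 to 78.4), 154 CPM (119 to 196) and 423 CPM (337 to 523) in the same bins. Vcan was thus ordered with Gdf5 at both stages without overlap of the intervals, in 181, 82 and 61 cells at E13.5 and 136, 53 and 32 at E15.5. The bins pool joint-like, chondrocyte-like and unnamed clusters and were not matched for depth. The part of cluster class or depth in this order was not tested. Tnfaip6 stood at 35.2, 42.6 and 78.5 CPM at E13.5 and at 29.6, 60.7 and 55.3 CPM at E15.5, with overlapping intervals between neighbouring bins. Hyal1 at E13.5 reached 32.7 CPM (18.3 to 53.9) in cells with 4 or more Gdf5 UMIs.

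The Vcan difference between joint cells and chondrocytes lay between clusters and hardly within chondrocyte-like ones. The 324 joint cells at E13.5 comprised 160 in joint-like, 97 in chondrocyte-like and 67 in unnamed mesenchymal clusters, and the 221 at E15.5 comprised 76, 102 and 43. Within chondrocyte-like clusters, Gdf5-positive cells had Vcan at 18.7 CPM (12.4 to 27.0) and Gdf5-negative cells at 17.2 CPM at E13.5, a ratio of 1.08 (0.707 to 1.60), and at E15.5 the levels were 27.4 CPM (19.2 to 37.9) and 18.8 CPM, a ratio of 1.45 (0.995 to 2.07). None of the 8 members was called there at either stage, beside 1.92% and 2% of genes called in either direction. With only these joint cells the 3 higher calls at E13.5 and the 2 at E15.5 were therefore lost. The lower call of Has2 at E13.5 was lost too, but its ratio did not move towards 1. It was 0.208 there and 0.304 with all joint cells, and it rested on fewer UMIs. Within joint-like clusters Vcan stood at 361 CPM (327 to 397) in Gdf5-positive cells and 227 CPM (209 to 246) in Gdf5-negative cells at E13.5, a ratio of 1.59 (1.40 to 1.81). At E15.5 it stood at 297 CPM (252 to 348) in Gdf5-positive and 195 CPM (173 to 219) in Gdf5-negative cells, a ratio of 1.52 (1.24 to 1.86). Both ratios lie above 1 and under the limit of 2. Hyal1 was the 1 member called within joint-like clusters, at E13.5, with 21.7 CPM in Gdf5-positive and 8.67 CPM in Gdf5-negative cells, a ratio of 2.51 (1.37 to 4.62), among 2.24% of genes called higher. At E15.5 no member was called there, beside 4.38% of genes in either direction. These splits were added after the values above had been seen.

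Cells of joint-like clusters without a Gdf5 UMI were also higher than chondrocytes. Vcan was 13.2-fold higher in them (11.4 to 15.2) at E13.5 and 10.3-fold higher (8.70 to 12.3) at E15.5, and Tnfaip6 was 6.42-fold (5.16 to 8.00) and 4.15-fold (3.15 to 5.42) higher. Cd44, which the Gdf5 gate did not separate, was 7.49-fold higher (2.82 to 20.4) at E13.5 and 9.01-fold higher (4.32 to 18.8) at E15.5 in these Gdf5-negative cells. In all, 4 members were called higher at E13.5, among 19.5% of genes, with Hyal1 at 2.10-fold (1.25 to 3.42) the fourth, and 3 at E15.5, among 15.5%. Relative to the median gene Hyal1 was at 1.68 and no longer called. The other lists moved with this split as well, since all 10 genes of a list of chondrocyte genes and the cartilage matrix genes Acan, Hapln1 and Hapln3 were lower in the Gdf5-negative joint-like cells at both stages. Over all genes, 664 of 12050 were lower at E13.5 and 517 of 11730 at E15.5. Genes of the chondrocyte list were left in the clustering and some name chondrocyte-like clusters, so their outcome was partly set by the grouping. Of 6 matrix partners of versican, 4 were higher at E13.5 and 5 at E15.5. The part of these genes in the differences was not tested. Of the joint-like clusters, the one led by Gdf5 and Pthlh bears its name among its leading genes, while the other has no joint marker among its 10 leading genes, so that its name rests on the marker rule alone.

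Other marker genes also moved with the joint gate. The list of limb bud mesenchyme markers had 9 of 14 members higher at E13.5, summing to 576 CPM in joint cells and 161 CPM in chondrocytes, and 8 of 14 higher at E15.5, summing to 457 and 183 CPM. Chondrocyte markers summed to 16841 CPM in joint cells and 29480 CPM in chondrocytes at E13.5, and to 27429 and 37823 CPM at E15.5. Osteoblast markers, 2 of 9 and 5 of 9 of them higher, summed to 196 CPM in joint cells and 71.2 CPM in chondrocytes at E13.5 and to 602 and 147 CPM at E15.5. Fibroblast markers, 3 of 10 and 2 of 10 of them higher, summed to 688 and 683 CPM at E13.5 and to 930 and 758 CPM at E15.5, and tendon markers, 3 of 6 and 2 of 6 of them higher, to 145 and 69.5 CPM and to 188 and 178 CPM. Epithelium markers, 4 of 13 and 5 of 13 of them higher, summed to 85.1 CPM in joint cells and 46.5 CPM in chondrocytes at E13.5 and to 146 and 68.6 CPM at E15.5. Pericyte or smooth muscle markers, 4 of 9 and 2 of 9 of them higher, summed to 112 and 117 CPM and to 159 and 154 CPM. The 9 macrophage markers, none of them called, summed to 16.5 CPM in joint cells and 20.4 CPM in chondrocytes at E13.5. Bglap2 and Dmp1, of mature bone cells, and Dpp4, a fibroblast marker, were at 0 in both groups at E13.5. In joint cells at E15.5, Phex was the 1 osteoblast marker and Pi16 the 1 fibroblast marker at 0. The part of these genes in the differences was not tested. On the joint list used as a check, 6 of 10 genes were higher at each stage, 1 of them Gdf5 itself, with Sfrp2 at 13.9-fold, Dkk3 at 13.01-fold and Erg at 5.72-fold at E13.5. Sfrp2, Erg, Osr2 and Barx1 are also markers that name joint-like clusters. On the chondrocyte list, Matn1, Epyc and 3110079O15Rik were lower at E13.5 and no gene at E15.5, and these genes also name chondrocyte-like clusters. Genes of both check lists were left in the clustering, so their outcome was partly set by the grouping and is no independent check.

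**Figure D2:**
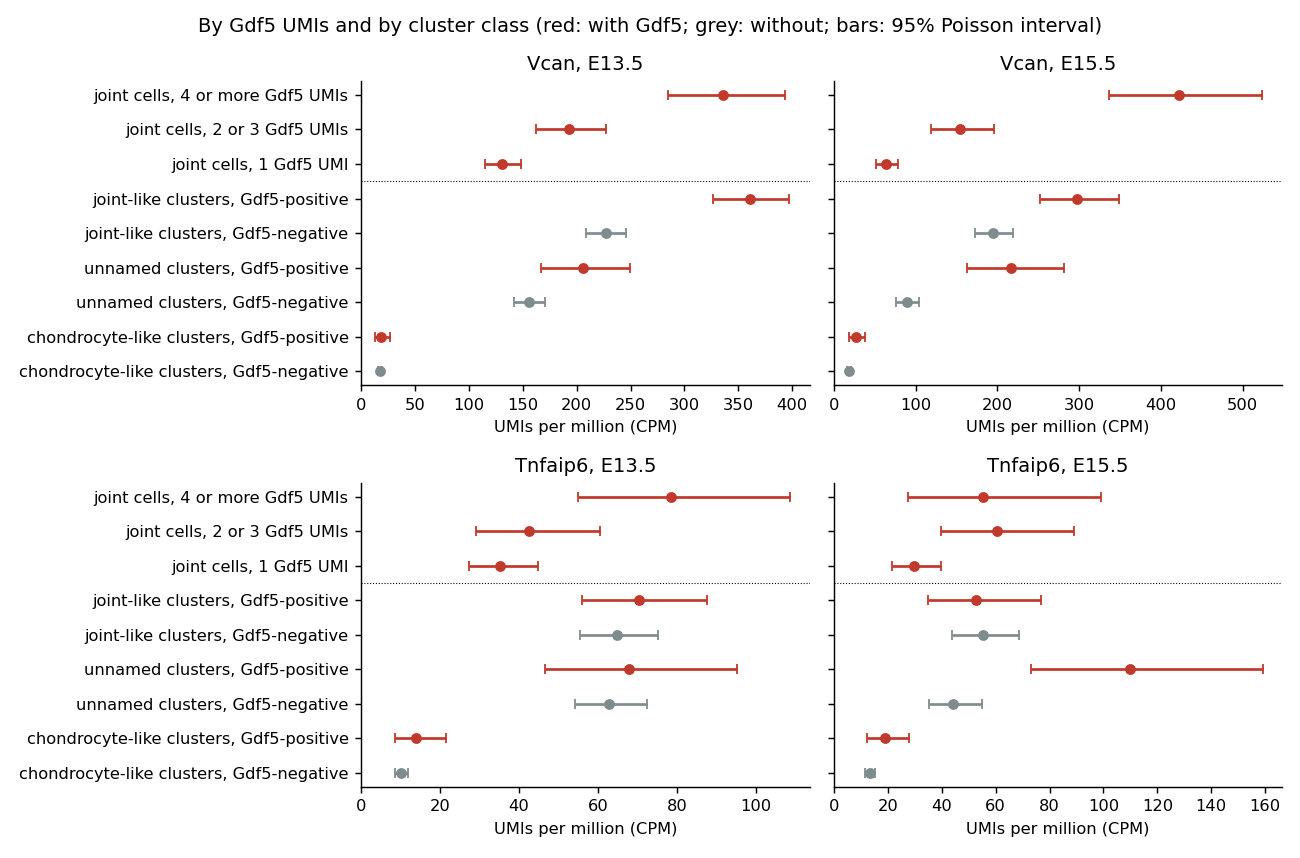
Vcan (upper panels) and Tnfaip6 (lower panels) at E13.5 (left) and E15.5 (right), in CPM with exact 95% Poisson intervals, first for joint cells by their Gdf5 UMIs and then for Gdf5-positive (red) and Gdf5-negative (grey) cells within each cluster class. Gdf5-positive cells of chondrocyte-like clusters stand beside the Gdf5-negative ones, far below all cells of joint-like clusters.

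Genes that act with the members were counted on lists, with roles as background. Beside these lists, 11.9% of all genes tested were higher in joint cells and 1.22% lower at E13.5, and 7.14% and 0.731% at E15.5. Of the 10 genes of precursor sugar supply found among 11 listed, which make the building blocks of the chain, none was called between joint cells and chondrocytes at either stage. Neither were any of the 3 genes that link CD44 to the cytoskeleton, nor any of the 6 heavy chain donors, 1 of which was measured. Of 10 further genes of hyaluronan breakdown, 5 of them with at least 20 UMIs, Hyal3 was the 1 called, and at E15.5 it was not called relative to the median gene. Among 7 further receptors, the scavenger receptor gene Stab1 was 3.31-fold higher (1.85 to 5.80) and the innate immune receptor gene Tlr2 7.37-fold higher (3.04 to 18.5) at E13.5, and none was called at E15.5. Versican is cut by ADAMTS proteases, and of 6 such genes 3 were higher in joint cells at E13.5. Adamts5 stood at 9.39 CPM in joint cells and 0.738 CPM in chondrocytes, 12.7-fold higher (6.29 to 27.4), Adamts9 was 2.86-fold higher (1.86 to 4.33) and Adamts1 2.13-fold higher (1.82 to 2.48). At E15.5 Adamts5 was the 1 called, 34.9-fold higher (11.9 to 139). Of 6 matrix partners of versican, the microfibril gene Fbn2 stood at 150 CPM in joint cells and 31.1 CPM in chondrocytes at E13.5, 4.83-fold higher (4.25 to 5.49), and was 3.22-fold higher (2.73 to 3.79) at E15.5, and Fbln1 was 2.01-fold higher (1.77 to 2.28) at E13.5. Relative to the median gene Adamts1 and Fbln1 were at 1.84 and 1.74, below the limit. None of the 7 other hyalectans and link proteins was called in CPM, and aggrecan and its link protein had ratios under 1. Acan stood at 548 CPM in joint cells and 1047 CPM in chondrocytes at E13.5, a ratio of 0.523 that was called relative to the median gene (0.453), and Hapln1 at 742 and 1277 CPM, a ratio of 0.581.

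Over whole libraries the members followed different courses by stage. In such sums, fewer cells of a type and less RNA per cell cannot be told apart. Vcan stood at 133 CPM (129 to 138) at E11.5, 58.8 CPM (56.3 to 61.4) at E13.5, 40.0 CPM (37.8 to 42.4) at E15.5 and 50.03 CPM (46.5 to 53.8) at E18.5. Tnfaip6 stood at 97.6 CPM (93.9 to 101) at E11.5, 19.95 CPM (18.5 to 21.5) at E13.5, 20.9 CPM (19.2 to 22.6) at E15.5 and 95.2 CPM (90.3 to 100) at E18.5. Vcan was thus highest in the limb bud, while Tnfaip6 was high at both ends, at levels whose intervals overlap. Cd44 stood at 10.1 CPM (8.96 to 11.4) at E11.5, 6.07 CPM (5.28 to 6.94) at E13.5, 14.0 CPM (12.7 to 15.4) at E15.5 and 108 CPM (102 to 113) at E18.5. Hyal2 stood at 82.3 CPM (78.9 to 85.8) at E11.5, 39.2 CPM (37.2 to 41.4) at E13.5, 34.9 CPM (32.8 to 37.1) at E15.5 and 17.0 CPM (15.0 to 19.2) at E18.5. Cd44 was thus highest and Hyal2 lowest at E18.5. Hyal1 lay between 7.17 and 8.74 CPM in all 4 libraries, with overlapping intervals. Has2 stood at 1.69 CPM (1.24 to 2.27) at E11.5, 3.14 CPM (2.58 to 3.78) at E13.5, 4.33 CPM (3.61 to 5.14) at E15.5 and 2.25 CPM (1.55 to 3.16) at E18.5. Has1 had 2, 1, 1 and 33 UMIs in stage order, and Has3 4, 11, 8 and 8. Synthase transcripts were therefore rare in all libraries, and most cells gave none.

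Pairs of stages were compared by the same rule. At E13.5 over E11.5, Tnfaip6 had a ratio of 0.204 (0.188 to 0.222), Vcan 0.441 (0.418 to 0.466) and Hyal2 0.477 (0.446 to 0.510), 3 of the 8 members called lower among 26.1% of 15153 genes, and none was higher, among 12.8%. The median gene stood at -0.55 on the log2 scale, with 1946 genes higher and 3958 lower, or 2951 higher and 1447 lower relative to it. Relative to that median, Tnfaip6 was still lower at 0.298, Vcan and Hyal2 were not called at 0.644 and 0.697, and Has2 was higher at 2.70. At E15.5 over E13.5, Cd44 was the 1 member called higher, at 2.31-fold (1.95 to 2.74), among 3.87% of genes, and none was lower, among 0.97%. At E18.5 over E15.5, Cd44 was 7.66-fold higher (6.87 to 8.56), Tnfaip6 4.57-fold higher (4.15 to 5.03) and Has1, with 33 UMIs against 1, 66.6-fold higher (11.2 to 2711), 3 members among 11.7% of 14930 genes. The 33 Has1 UMIs came from 16 of 1895 cells, and the interval does not cover variation between cells. Hyal2 was lower, with a ratio of 0.487 (0.423 to 0.560), among 8.22% of genes, and at 0.539 relative to the median gene it was not called. Has2 had a ratio of 0.521 (0.344 to 0.768) there and Vcan one of 1.25, neither called.

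**Figure D3:**
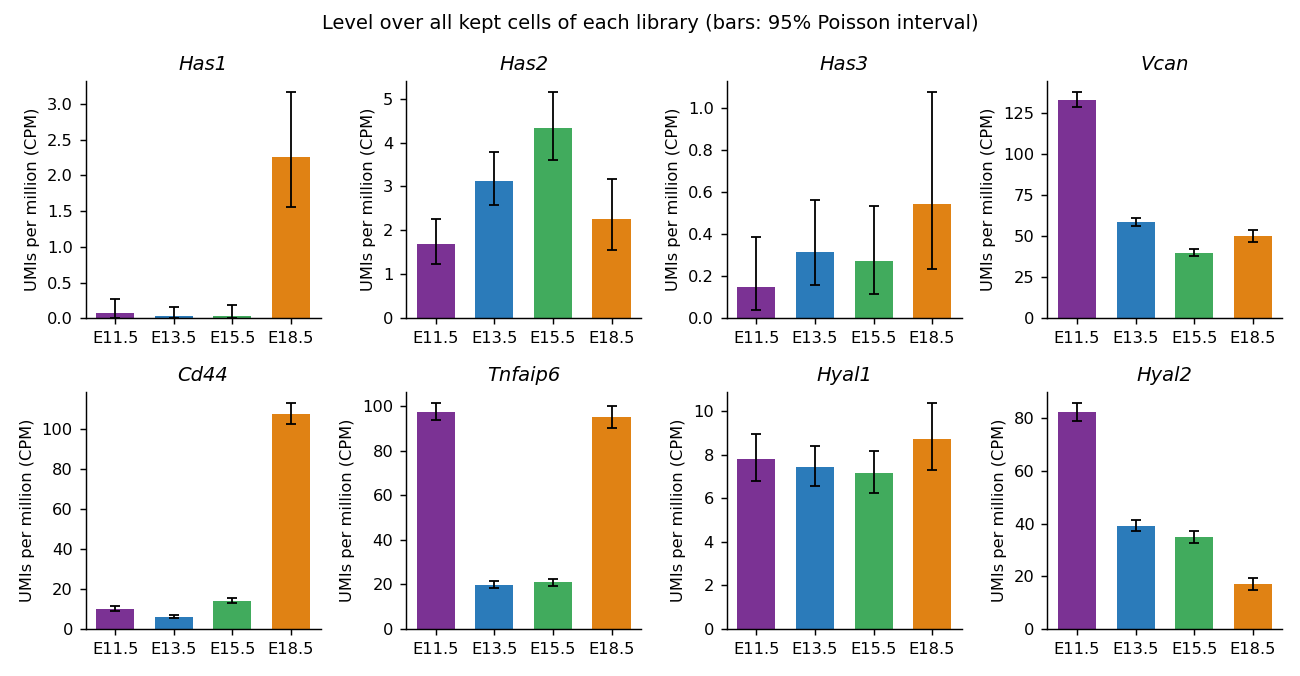
Level of the 8 genes over all kept cells of each library, in CPM on axes that start at 0 and differ between panels, with exact 95% Poisson intervals as bars. Vcan and Hyal2 are highest at E11.5, Cd44 and Has1 at E18.5, Tnfaip6 at both ends, and the intervals of Hyal1 overlap across all 4 stages.

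Genes of the related lists were called in both directions between stages. Over all genes tested, 12.8% were higher and 26.1% lower at E13.5 over E11.5. At E13.5 over E11.5, aggrecan (Acan, 656-fold) and its link protein (Hapln1, 15.1-fold) were higher, while Ncan, another hyalectan, was lower in CPM (0.394) but not relative to the median gene. Of 10 precursor genes 3 were higher, Ugdh (2.78-fold), Gfpt2 (2.44-fold) and the nucleotide sugar transporter gene Slc35d1 (5.25-fold), and none was lower. Among versican partners the tenascin gene Tnc was 16.1-fold higher and the fibrillin gene Fbn1 2.56-fold higher, while Fbln1 was lower with a ratio of 0.260. Of 7 receptor genes, 6 of them with at least 20 UMIs, 3 were lower and none higher, with ratios of 0.322 for Stab1, 0.168 for Stab2 and 0.210 for Tlr4. The breakdown gene Tmem2 (0.311) and the versican-cleaving protease gene Adamts4 (0.257) were lower too, and Msn, which links CD44 to the cytoskeleton, was lower in CPM (0.343) but not relative to the median gene.

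At E15.5 over E13.5, no gene of these lists was lower, beside 0.97% of all genes tested, and 3.87% of all genes were higher. Cemip, whose product degrades hyaluronan, was 10.9-fold higher with 46 UMIs at E15.5 and 5 at E13.5. Of the 7 receptor genes 3 were higher, the endothelial receptor genes Lyve1 at 19.3-fold and Stab2 at 12.7-fold, and Tlr4 at 3.79-fold with 16 UMIs at E15.5 and 5 at E13.5. At E18.5 over E15.5, 11.7% of all genes were higher and 8.22% lower. There, Lyve1 (2.82-fold), Tlr2 (3.24-fold) and Tlr4 (2.27-fold) were higher, while Stab2, with 7 UMIs at E18.5 and 43 at E15.5, was lower. Cemip was lower as well, with 7 UMIs at E18.5 and 46 at E15.5. Of 6 versican-cleaving protease genes 4 were higher, Adamts1 at 3.12-fold, Adamts4 at 7.22-fold, Adamts5 at 4.06-fold and Adamts15 at 2.24-fold. The heavy chain donor gene Itih5 was 9.86-fold higher (8.33 to 11.7), Fbn1 2.48-fold and Msn 2.08-fold. Precursor genes were lower in 5 of 10 cases, with ratios of 0.227 for Slc35d1, 0.319 for Ugdh, 0.324 for Gfpt1 and 0.413 for Gfpt2, and so were Acan at 0.254, Hapln1 at 0.305 and Bcan, with 2 UMIs at E18.5 and 22 at E15.5. Chondrocyte-like cells made up 14.5% of kept cells at E18.5 and 45.0% at E15.5, and the part of this in these differences was not tested.

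Vcan also differed widely among cell classes. At E11.5 it stood at 365 CPM (348 to 382) in unnamed clusters, most of whose cells belong to a cluster led by Tbx18, Hsd11b2, Osr2 and Sfrp2, and at 125 CPM (119 to 132) in limb bud mesenchyme-like cells. In that mesenchyme, Gdf5 and Vcan already stood together. The 117 Gdf5-positive cells of the unnamed clusters had 763 CPM (703 to 827) of Vcan and the Gdf5-negative ones 289 CPM (273 to 306), and in limb bud mesenchyme-like cells the levels were 222 CPM (195 to 252) and 116 CPM (110 to 123). Tnfaip6 did not follow Gdf5 in this way, with 156 CPM in Gdf5-positive and 139 CPM in Gdf5-negative unnamed cells, and 143 CPM in both kinds of limb bud cells. Joint-like cells had Vcan at 267 CPM (251 to 284) at E13.5 and 221 CPM (201 to 243) at E15.5, above all other named classes of at least 30 cells at those stages. The nearest named classes were muscle progenitor-like cells, at 57.3 CPM (40.1 to 79.3) and 66.7 CPM (52.9 to 82.9), and at E15.5 fibroblast-like cells at 51.3 CPM (39.5 to 65.7), which do not differ from the muscle cells beyond their intervals. Endothelium-like cells had 3.78, 6.53 and 6.13 CPM from E11.5 to E15.5. At E18.5 fibroblast-like cells had 177 CPM (160 to 196), and this class was not uniform, with 344 CPM (308 to 383) in a cluster of 119 cells led by Mfap5 and Clec3b and 32.7 CPM (22.9 to 45.3) in the other, led by Egfl6.

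Tnfaip6 and Cd44 each had another set of leading classes. Tnfaip6 stood at 143 CPM (137 to 150) in limb bud mesenchyme-like cells at E11.5, at 66.5 CPM (58.6 to 75.2) and 54.6 CPM (44.8 to 65.9) in joint-like cells at E13.5 and E15.5, and at 112 CPM (94.5 to 133) in fibroblast-like cells at E15.5. At E18.5 it stood at 369 CPM (343 to 396) in fibroblast-like, 152 CPM (137 to 167) in pericyte-like or smooth muscle-like and 98.4 CPM (65.9 to 141) in neutrophil-like cells. At each stage the highest level of Tnfaip6 thus lay in a mesenchymal class. Cd44 was led by blood cells, with 158 CPM (132 to 189), 220 CPM (186 to 258) and 334 CPM (298 to 374) in macrophage-like or monocyte-like cells at E13.5, E15.5 and E18.5 and 492 CPM (415 to 579) in neutrophil-like cells at E18.5. Epithelium-like cells had Cd44 at 6.03, 4.02, 12.9 and 128 CPM in stage order. Chondrocyte-like cells were the low end, at 0.620 CPM at E13.5 and 1.24 CPM at E15.5. Hyal2 was highest in endothelium-like cells at E13.5 (79.3 CPM, 63.3 to 98.1) and E15.5 (70.5 CPM, 51.7 to 94.1), and at E11.5 stood at 120 CPM (110 to 131) there and 126 CPM (115 to 138) in epithelium-like cells, within overlapping intervals. Hyal1 led in epithelium-like cells at the later stages, with 15.8, 16.7 and 22.7 CPM from E13.5 on, although its intervals overlap those of joint-like cells at E13.5 and E15.5.

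**Figure D4:**
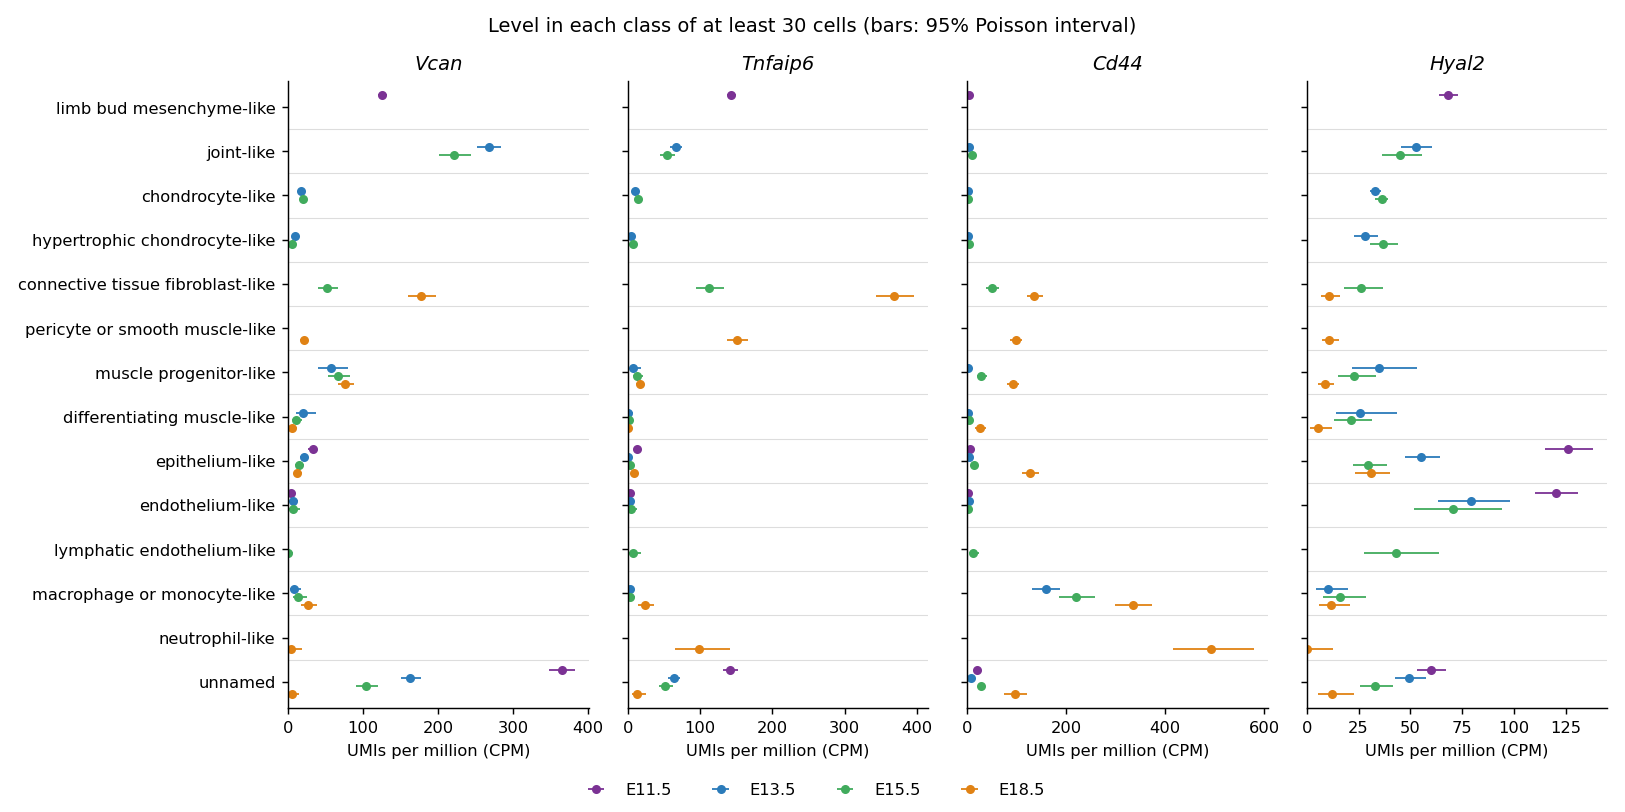
Level of Vcan, Tnfaip6, Cd44 and Hyal2 in each cell class of at least 30 cells, in CPM with exact 95% Poisson intervals, coloured by stage; chondrocyte-like cells at E18.5 are left out because one of their clusters has leading markers of another class. Vcan stands highest in unnamed cells at E11.5 and joint-like cells at E13.5 and E15.5, Tnfaip6 in fibroblast-like cells at E18.5, and Cd44 in neutrophil-like and macrophage-like cells.

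The synthase transcripts lay in different classes. Has2 had 53 of its 110 UMIs at E13.5 in chondrocyte-like cells and 40 in hypertrophic chondrocyte-like cells, the enlarged cells of maturing cartilage, which made up 6.47% of kept cells. After the low count in joint cells had been seen, hypertrophic cells were set against all chondrocyte-like cells, and Has2 stood at 10.97 CPM (7.83 to 14.9) in hypertrophic and 2.99 CPM (2.24 to 3.90) in chondrocyte-like cells at E13.5, 3.67-fold higher (2.37 to 5.64), 1 member among 5.19% of genes. At E15.5 the ratio was 1.38 (0.825 to 2.23) and was not called. The opposite-strand gene Has2os overlaps Has2, and no source used here says whether counting used the strand. Has2os itself stood at 6.03 CPM in hypertrophic and 5.97 CPM in chondrocyte-like cells at E13.5. Tnfaip6 was lower in hypertrophic cells at E13.5, with a ratio of 0.421 (0.236 to 0.702), among 6.93% of genes, and Vcan at E15.5, with 0.261 (0.150 to 0.426), among 7.75%. Cd44 was 3.41-fold higher (1.57 to 7.25) there at E15.5, among 8.47%, and Cemip 35.9-fold higher, with 41 UMIs in hypertrophic and 5 in chondrocyte-like cells. Has2 at E15.5 stood at 14.7 CPM (8.70 to 23.2) in fibroblast-like cells and 6.94 CPM (4.40 to 10.4) in hypertrophic cells. These intervals overlap, but no ratio of these classes was computed, so the size rule was not applied and overlap alone does not exclude a difference. Of the 33 Has1 UMIs at E18.5, 22 lay in fibroblast-like cells and 10 in pericyte-like or smooth muscle-like cells. Has3 lay mostly in epithelium-like cells, with 7 of 11 UMIs at E13.5, 6 of 8 at E15.5 and 7 of 8 at E18.5.

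The share of a gene's UMIs that a class held joins its level with its cell number. Joint-like cells, 18.2% of kept cells at E13.5, held 49.3% of Vcan UMIs, and at E15.5, where they were 10.8% of cells, 37.0%. How many cells are called joint-like depends on the clustering: the Vcan share at E13.5 was 77.0% at Leiden resolution 0.5 and 26.3% without the cells of highest doublet score. Fibroblast-like cells, 16.3% of cells at E18.5, held 49.7% of Vcan and 54.3% of Tnfaip6 UMIs, and muscle progenitor-like cells another 25.4% of Vcan. Limb bud mesenchyme-like cells held 70.5% of Tnfaip6 and 77.8% of Has2 UMIs at E11.5. The Tnfaip6 share was 29.3% with each library clustered by itself. Macrophage-like or monocyte-like cells, 1.39% of cells at E13.5, held 59.2% of Cd44 UMIs, and 19.8% at E18.5, where fibroblast-like (17.7%), pericyte-like or smooth muscle-like (17.3%), muscle progenitor-like (14.3%) and epithelium-like cells (14.0%) each held a smaller share. The E18.5 macrophage share was 7.24% with the library clustered by itself, and the epithelial one 8.70% with stricter cell filters.

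**Figure D5:**
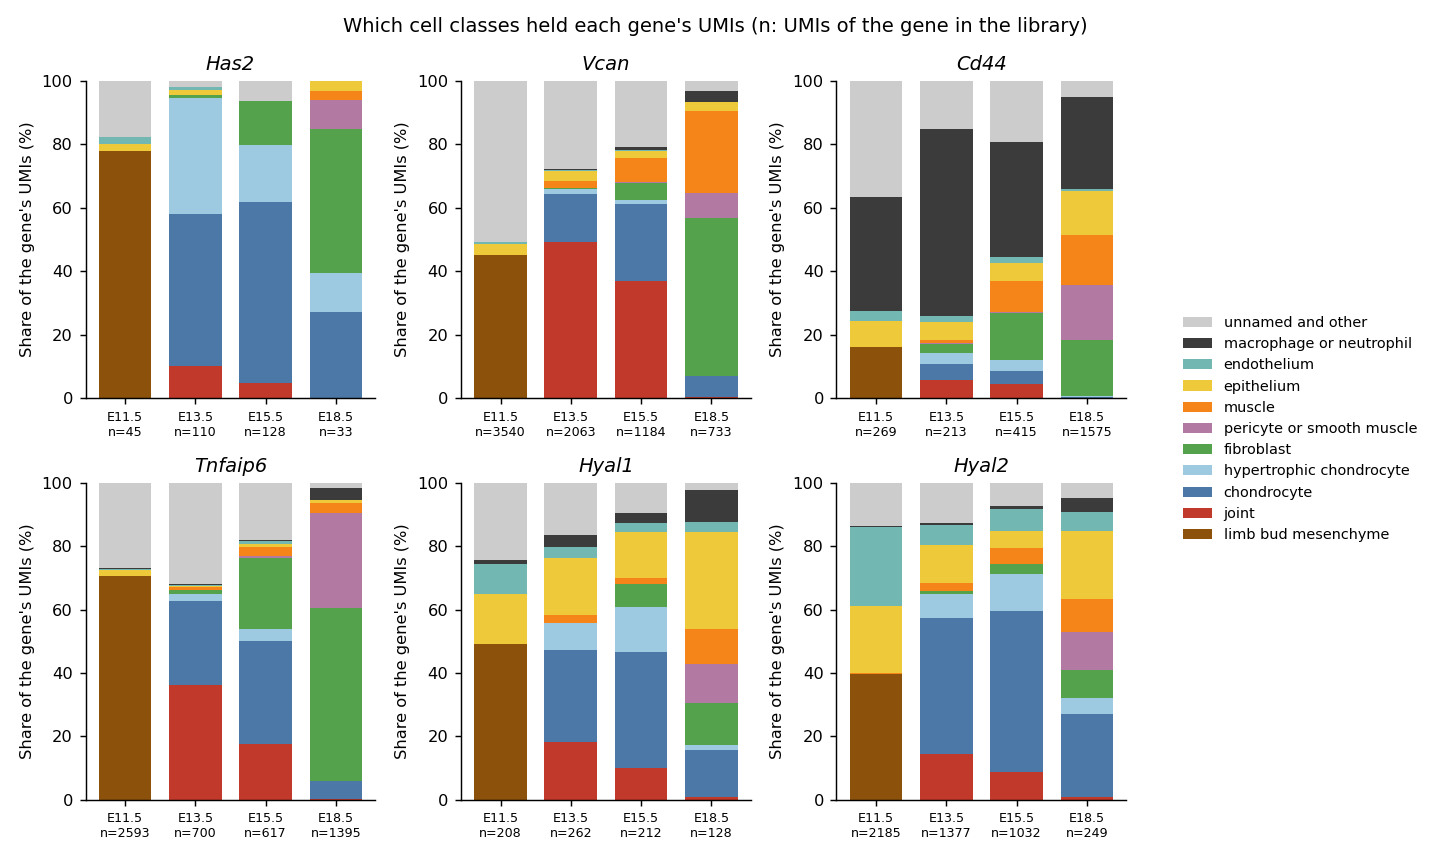
Share of each gene's UMIs held by each cell class, stacked to 100% for each library, with the number of UMIs of the gene (n) under each bar; Has1 and Has3 are left out for their low counts. Joint-like cells hold 49.3% of Vcan at E13.5, and fibroblast-like cells 54.3% of Tnfaip6 at E18.5.

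Stages were also compared within named classes that had at least 30 cells in both libraries, other than chondrocyte-like cells. These comparisons came after the library values had been seen, and Cd44 was higher at E18.5 in several of the classes. At E18.5 over E15.5, Cd44 was 9.89-fold higher (6.47 to 15.8) in epithelium-like cells, among 8.79% of genes, where different clusters hold most of the class at the 2 stages. It was 5.48-fold higher (2.05 to 18.4) in differentiating muscle-like cells, among 3.14%, 3.21-fold higher (2.24 to 4.72) in muscle progenitor-like cells, among 5.62%, and 2.73-fold higher (2.06 to 3.67) in fibroblast-like cells, among 7.68%. In macrophage-like or monocyte-like cells the Cd44 ratio was 1.52, below the limit, while Tnfaip6, with 22 UMIs at E18.5 and 2 at E15.5, was 8.09-fold higher (1.99 to 71.0), among 4.95%. At E15.5 over E13.5, Cd44 was 2.89-fold higher (1.31 to 6.57) in joint-like cells, among 0.995% of genes, with 18 UMIs at E15.5 and 12 at E13.5, and 3.22-fold higher in epithelium-like cells, among 1.64%. In muscle progenitor-like cells it had 35 UMIs at E15.5 and 1 at E13.5, 18.1-fold higher (3.04 to 735), among 2.2%. In joint-like cells at E15.5 over E13.5, Vcan had a ratio of 0.828 and Tnfaip6 one of 0.821, neither called.

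In fibroblast-like cells at E18.5 over E15.5, Vcan was 3.45-fold higher (2.64 to 4.59), Tnfaip6 3.28-fold higher (2.73 to 3.96) and Has1, with 22 UMIs against 1, 13.1-fold higher (2.12 to 542). All Has1 UMIs of the E18.5 library came from 16 cells. Hyal2 was lower in fibroblast-like cells, with a ratio of 0.411, among 8.19% of genes. It was also lower in muscle progenitor-like cells (0.374, among 7.63%) and differentiating muscle-like cells (0.248, among 10.1%). A cluster with 119 of the 308 fibroblast-like cells at E18.5 had 2 cells at E15.5, so different clusters make up the class at these stages. In epithelium-like cells at E13.5 over E11.5, Hyal2 had a ratio of 0.439 and Tnfaip6, with 3 UMIs against 45, one of 0.0816, both lower among 22.1% of genes. The median gene had a ratio of 0.668 in this comparison, and relative to it Hyal2 was not called. Here too the class lies mostly in different clusters at the 2 stages. None of the 3 members with at least 20 UMIs was called in endothelium-like cells at E13.5 over E11.5, beside 21.3% of genes in either direction. At E15.5 over E13.5 none was called in hypertrophic chondrocyte-like cells (8.12%), where 6 members had at least 20 UMIs. None was called either in endothelium-like (2.63%), differentiating muscle-like (6.01%) or macrophage-like cells (7.55%), where 1, 2 and 1 members had that many, so that few of the 8 could be called there.

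Genes with the most similar pattern were ranked by Pearson's r of log2(CPM + 1) over 33 groups of a class at a stage, as a description, since groups of a stage share a library. Vcan was nearest to Sfrp2 (0.899), a secreted WNT modulator, Olfml1 (0.860) and Runx1t1 (0.834). Tnfaip6 was nearest to the T-box gene Tbx18 (0.827), the endothelin receptor gene Ednra (0.815) and Gm26523 (0.799). Cd44 was nearest to the chemokine gene Cxcl2 (0.856), Ethe1 (0.808) and the transcription factor gene Cebpb (0.797). Has2 was nearest to Glis1 (0.937), Trim61 (0.864) and the parathyroid hormone receptor gene Pth1r (0.853). Sfrp2 and Pth1r were left in the clustering and are markers that name joint-like and hypertrophic chondrocyte-like clusters. Their ranks were thus partly set by the grouping. Hyal1 was nearest to Dusp7 (0.768), and Hyal2 to Anapc2 (0.929). Has1 and Has3, with 37 and 31 UMIs in all, were below the minimum of 200 set for this ranking.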

How the data were processed

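The deposited tables hold counts of UMIs for each gene in each barcode. The authors used Cell Ranger and mm10, and Seurat 2.3.4 is also named, per the submitters' processing notes. The Cell Ranger version, the calling of barcodes and any use of strand in counting were all not given in the sources used here. Kept cells had 200 genes or more and no more than 10% mitochondrial UMIs (scanpy 1.11.5, Python 3.11.15). Scrublet marked 42 barcodes (0.409%), and these were dropped. With so few marked, the call was not relied on, and doublets may remain.

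The log-scaled counts of 2000 variable genes, without the members and related lists, gave 30 components, 15 neighbours and Leiden clusters at resolution 1. A cluster could take the name of a marker list if 3 or more of its genes were in 20% of cells or more and 2-fold above the rest. Of several such lists, the one with the highest score, a mean log2 ratio to the rest, was taken. A cluster stayed unnamed if another list scored more than 0.5 higher. With no marker of the list among its leading genes, it also stayed unnamed if markers of another list led or its UMIs were low. A check for lymphoid genes, which left 1 cluster unnamed, was added after seeing the data. UMIs were summed per library and group; intervals are exact (Poisson, Clopper-Pearson, conditional binomial), at 95%, and leave out variation between cells, embryos and preparations. Totals without globin genes were 26555174, 35086578, 29587077 and 14650216 UMIs in stage order. The size rule was tested on simulated counts. Positions are from GENCODE vM21, which holds 32655 of the 33456 gene IDs.

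Members and lists were chosen with earlier results of these data known. All members are described; of other genes, the rule was up to 4 called genes a list, those of largest ratio, and the 3 most alike, and the text gives these for joint cells over chondrocytes and between stages and only some elsewhere. Chondrocyte-like cells were left out of every comparison of stages within classes, E15.5 over E13.5 included. The reason was a cluster of theirs at E18.5 that has leading fibroblast genes. Alternatives were other clusterings, gates, filters, thinning and scalings.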

Additional observations from a re-analysis of the deposited data

How the results depend on the processing

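No result changed direction from a called value. No paired analysis was possible because each stage is 1 library, and no library could be left out for the same reason. Clustering each library by itself gave no chondrocyte-like cluster at E13.5, so that alternative has no value there. The Vcan ratio of joint cells over chondrocytes ranged from 1.08 to 18.8 at E13.5 (called in 12 of 13 alternatives) and from 1.45 to 14.3 at E15.5 (13 of 14), and that of Tnfaip6 from 1.39 to 7.04 (12 of 13) and from 1.43 to 5.39 (12 of 14). Hyal1 at E13.5 ranged from 1.46 to 4.50 (11 of 13) and Has2 from 0.208 to 0.969 (8 of 13). The alternatives counted are not equally strict. Means of per-cell CPM were judged by size without an interval, so a call there rests on a weaker rule. Dropping the minimum number of UMIs cannot change the ratio or call of a gene that already meets it. The counts of alternatives therefore overstate how many separate checks these calls passed. Cd44 at E15.5 ranged from 0.192 to 7.34, higher in 3 alternatives and lower in 1, the gates on genes without clusters. At E15.5 these gates set 240 cells against 2068 of the 2590 kept cells, a group not limited to the 1165 cells of chondrocyte-like clusters. The cause of these shifts was not tested.

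At Leiden resolution 0.5, joint-like Vcan was 225 CPM at E13.5 and 193 at E15.5, with shares of 77.0% and 55.2%. Macrophage-like Cd44 at E18.5 was 232 CPM (24.1%), fibroblast-like Tnfaip6 448 CPM (42.5%) and limb bud Tnfaip6 126 CPM (46.6%). With each library clustered by itself, joint-like Vcan was 298 CPM (31.3%) at E13.5 and 181 CPM (28.2%) at E15.5, limb bud Tnfaip6 128 CPM (29.3%), macrophage-like Cd44 at E18.5 226 CPM (7.24%), the hypertrophic share of Has2 at E13.5 25.5%, and 133 genes were lower in joint cells at E15.5. Without the 3% highest doublet scores, joint-like Vcan was 323 CPM (26.3%) and 265 CPM (15.8%), the limb bud Tnfaip6 share 73.5% and the macrophage-like Cd44 share 16.4%. With at least 1000 genes and at most 5% mitochondrial UMIs, limb bud Tnfaip6 was 152 CPM (78.6%), the E18.5 Cd44 shares 22.5% in macrophage-like and 8.70% in epithelium-like cells, and 1 member was higher at E13.5 over E11.5. With all deposited barcodes, 2 members were lower at E18.5 over E15.5.

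For joint cells over chondrocytes, counts of all genes moved with the gate. With at least 2 Gdf5 UMIs, 1446 genes were higher and 280 lower at E15.5, and 389 lower at E13.5, with 0 members lower. Gates without clusters gave 540 higher and 404 lower at E13.5, 387 and 587 at E15.5, where 1 member was higher and 1 lower. They set 341 cells against 2279 at E13.5 and 240 against 2068 at E15.5, so the larger group was not limited to chondrocyte-like clusters. Joint cells of chondrocyte-like clusters gave 116 and 134 higher at the 2 stages and 0 members in either direction. Those outside gave 2533 higher and 647 lower at E13.5, with 0 members lower, and 1934 and 507 at E15.5. Whole clusters gave 2590 and 691, with 0 members lower, and 1929 and 545. Means of per-cell CPM, judged without an interval, gave 541 lower at E13.5, and 1296 higher and 476 lower at E15.5. They gave 280 lower at E15.5 over E13.5, and 1 member lower at E13.5 over E11.5. Counts from these means thus rest on a weaker rule than the others. Relative to the median gene, 300 and 157 genes were lower in joint cells at the 2 stages. For E13.5 over E11.5, that scaling gave 2951 higher and 1447 lower, with 1 member in each direction, and at E18.5 over E15.5 0 members were lower.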
